A study of Homo sapiens with 16 samples.

Results

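ADAM8, ADAM9, ADAM10, ADAM12, ADAM15, ADAM17 and ADAM19 are ADAM (a disintegrin and metalloprotease) genes whose products are membrane-anchored proteases. They were taken by gene symbol from both deposited expression tables and make up 7 of 57773 listed genes. The cells were A549, a human lung adenocarcinoma line of alveolar epithelial type, taken through an epithelial-mesenchymal transition (EMT) induced with TGF-beta. RNA was sequenced at 0, 6, 12, 24, 36, 48, 72 and 96 h, with 2 libraries at each time and 16 in all. The 0 h libraries were the only reference, and no untreated cultures of a later time were part of the comparisons, so the cytokine and the time in culture cannot be told apart. The labels do not say that the 2 libraries of a time came from separate cultures, so the p-values measure the spread between these libraries, which may be technical.

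ADAM proteases cut the extracellular part of membrane proteins close to the cell surface, a step called ectodomain shedding. Each is made as a proenzyme, and many of them are activated by a proprotein convertase such as furin. Partner proteins steer the traffic and substrate choice of some members. Shedding releases growth factors and adhesion molecules, and it starts the intramembrane cleavage of receptors such as Notch, so these enzymes lie on the route by which epithelial cells loosen junctions and signal to their neighbours. Transcript abundance, which was measured here, does not give protease activity.

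The deposited values are TPM, transcript shares that are corrected for transcript length and scaled to 1 fixed total per library, so that levels of different genes can be set side by side. They keep no read totals, so the depth behind each value is unknown and no counting interval can be given. All 7 genes passed the filter of at least 1 TPM in at least 2 libraries, as did 16967 genes in total. ADAM12 reached 1 TPM in 14 of 16 libraries and ADAM8 in 8 of 16. In TPM, 6 abundant small RNAs took 42.5% to 64.1% of a library, and between 29278 and 31187 genes were listed at 0 apart from the second libraries at 36 h and 48 h, with 36116 and 36294. The transition was visible in CDH1, which encodes E-cadherin, at 21.0 ± 9.23 TPM (SD, n = 2) at 0 h and 1.84 ± 1.98 (SD, n = 2) at 96 h. KRT8 and KRT18, keratins of simple epithelia, were at 537 TPM or more in every library but fell by 96 h. Their log2 fold changes there were -1.22 and -1.27 (limma adjusted p = 0.0238 and 0.0287), where 1.26% of all genes were called lower. With the replicate number as a block both passed (limma adjusted p = 0.0022 and 0.00192), where 3.31% of all genes were called lower. With that block and trimmed mean of M values scaling together, neither passed (limma adjusted p = 0.152 and 0.116). The alveolar markers NKX2-1, SFTPB and SFTPC did not pass the filter. Of markers of other cell types, the 8 fibroblast markers summed to between 1.64 and 7.32 TPM. The 8 leukocyte markers summed to between 5.72 and 15.2 TPM, most of it CD68 and LYZ, with CD68 at 3.07 to 8.41 TPM, while the pan-leukocyte PTPRC stayed at or below 0.31. Their part in the results was not tested.

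The promoters of ADAM19, the member that changed most, and of ADAM12, a close relative that passed no test, are shown so that their letters can be set beside the values. They are the 250 bases before the RefSeq start site on GRCh38.p14, on the gene's own strand and 5′ to 3′, and 6 of the 7 genes were in the promoter table. ADAM19 lies on chromosome 5 (157395534 to 157575775, minus strand, GENCODE 29) and ADAM12 on chromosome 10 (126012381 to 126388455, minus strand). Capitals mark a match to CACCTG, a sequence bound by E-box repressors of the SNAI and ZEB families, or to CAGAC, a sequence that SMAD proteins bind, on either strand. The windows were chr5:157575776-157576025 and chr10:126388478-126388727.
ADAM19: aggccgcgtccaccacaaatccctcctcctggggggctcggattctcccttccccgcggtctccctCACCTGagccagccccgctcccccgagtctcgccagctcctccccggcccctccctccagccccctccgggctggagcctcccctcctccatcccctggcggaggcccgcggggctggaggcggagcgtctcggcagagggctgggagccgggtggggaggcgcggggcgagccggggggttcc
ADAM12: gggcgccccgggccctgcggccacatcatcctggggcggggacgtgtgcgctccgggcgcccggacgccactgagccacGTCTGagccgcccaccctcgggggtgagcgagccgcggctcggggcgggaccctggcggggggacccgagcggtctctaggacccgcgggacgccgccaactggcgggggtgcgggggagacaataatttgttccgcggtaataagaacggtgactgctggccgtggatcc

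The printed windows were rich in G and C, with 76.4% in ADAM19 and 73.6% in ADAM12 against a median of 58.0% over all promoters. Both strands were searched for 5 motifs. The SMAD motif CAGAC was present in 38.0% of 35116 promoters, the AP-1 site TGANTCA in 6.57%, the E-box CACCTG in 17.5%, the GC box GGGCGG in 42.6% and the core of the NRF2 site, TGANNNNGC, in 35.2%. The ADAM19 window held 1 CACCTG, 184 to 179 bases before the start and overlapping a TGANNNNGC match, and it held no SMAD motif, no AP-1 site and no GC box. ADAM12 held 1 CAGAC on the opposite strand, 171 to 167 bases before the start, with 3 GC boxes. Among the members not printed, ADAM15 held 6 GC boxes and none of the SMAD, AP-1 or CACCTG letters. ADAM10 and ADAM17 held 1 CAGAC each, and ADAM8 held 2 CACCTG. These are matches of letters in a short window and say nothing of whether a factor bound there.

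At 0 h the 7 genes spanned about 2 orders of magnitude in TPM. ADAM9, a widely expressed sheddase, stood at 155 and 146 TPM in the first and second library, and ADAM10, the protease that cuts E-cadherin, N-cadherin and Notch receptors, at 74.1 and 77.9. ADAM17, also called TACE for its release of tumour necrosis factor, was at 24.8 and 25.7, and ADAM15, whose disintegrin domain binds integrins, at 21.4 and 27.3. The libraries of ADAM17 and ADAM15 overlapped. ADAM19 (meltrin beta), which processes neuregulins, was at 5.52 and 1.58 and ADAM12 (meltrin alpha), a relative of it, at 3.10 and 1.69, again with overlap. ADAM8, best known from leukocytes, was lowest at 1.60 and 1.57.

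**Figure D1:**
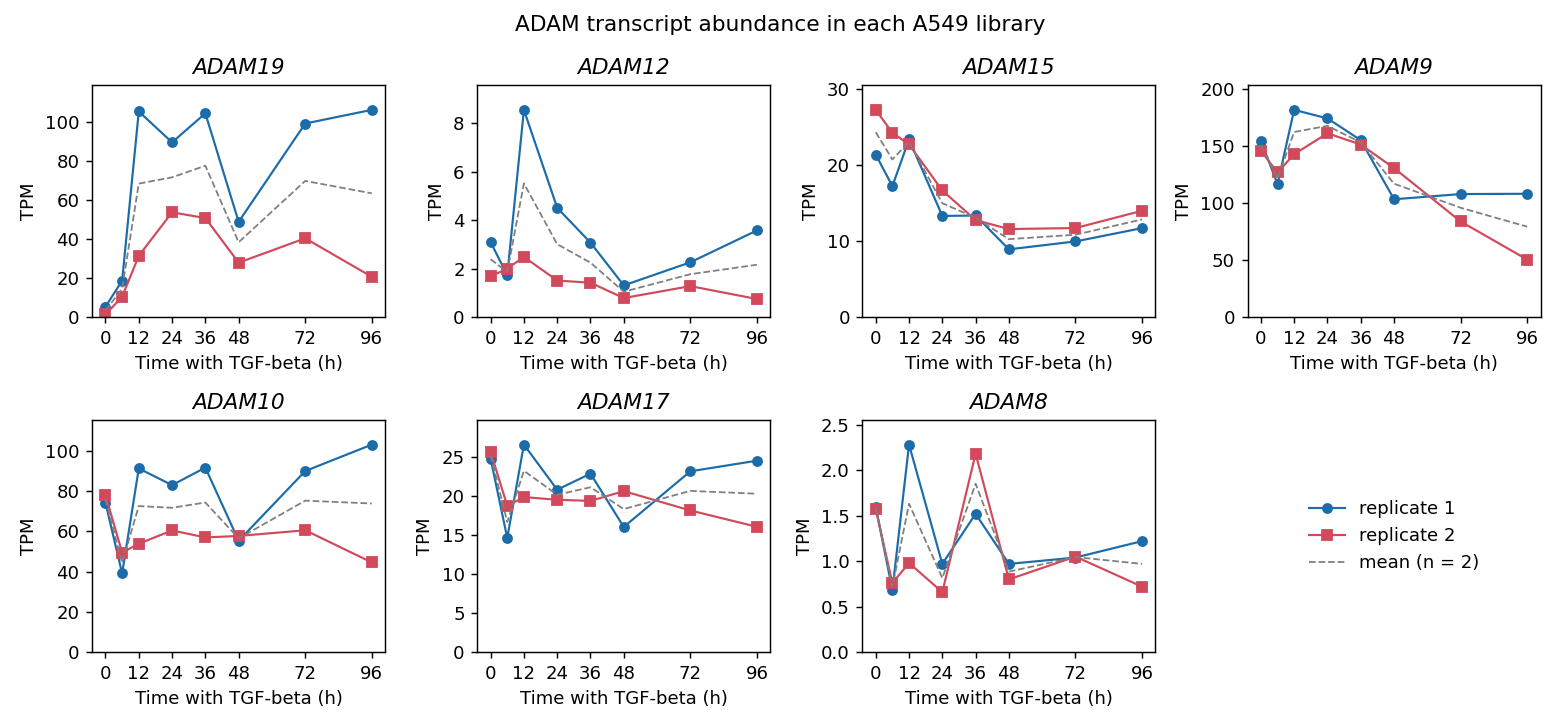
TPM (vertical axis, linear and starting at 0, scaled separately for each gene) of the 7 ADAM genes against hours with TGF-beta, with 1 line for each replicate number and a dashed mean of the 2 libraries. ADAM19 left its 0 h level of 5.52 and 1.58 TPM in both libraries and was at 20.8 or above at each time from 12 h, while ADAM17 stayed between 14.6 and 26.6 TPM throughout.

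ADAM19 was the member that changed most, and it was the 1 member of 7 that rose, at each of the 5 times from 24 h to 96 h. Its TPM in the first and second library were 18.9 and 10.6 at 6 h, 106 and 31.6 at 12 h, 89.7 and 53.9 at 24 h, and 105 and 50.9 at 36 h. They were 49.0 and 28.1 at 48 h, 99.4 and 40.6 at 72 h, and 106 and 20.8 at 96 h. Every library from 6 h on lay above both 0 h libraries, where 15.2% of all genes at 24 h and 7.6% at 96 h had both libraries above those of 0 h. The first library lay above the second at all 8 times, by 1.67 times at 24 h to 5.1 times at 96 h. Set against the 0 h library of the same replicate number, the first series was 16.3 times higher at 24 h and 19.3 times at 96 h, and the second series 34.1 and 13.2 times.

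The tests of ADAM19 used limma on log2(TPM + 1), with all 16 libraries sharing 1 estimate of the spread and Benjamini-Hochberg adjustment over the 16967 genes of a comparison. Fold changes on that scale understate the change of low genes. The log2 fold change was 4.10 (SE 0.78, limma adjusted p = 0.0238) at 24 h, where 0.613% of all genes tested were called higher. It was 4.17 (adjusted p = 0.0155) at 36 h, with 0.967% of genes called higher, 3.22 (adjusted p = 0.0291) at 48 h, with 0.796%, 3.98 (adjusted p = 0.0174) at 72 h, with 0.831%, and 3.56 (adjusted p = 0.0373) at 96 h, with 0.536%, all by limma. By size of rise ADAM19 ranked 7, 10, 18, 11 and 12 of 16967 genes from 24 h to 96 h. The median of all genes moved by -0.15 at 24 h, -0.46 at 48 h and -0.20 at 96 h, far less than ADAM19.

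The start of the ADAM19 rise was less firmly placed. At 6 h the log2 fold change of 1.89 (SE 0.78, limma adjusted p = 0.348) did not pass, and 0 of 7 members were called where 0.0177% of all genes were. Without adjustment, 2 of the 7 were under 0.05 at 6 h. At 12 h it was 3.85 (limma adjusted p = 0.0552), rank 5 of 16967, and again 0 of 7 members passed, with 1 of them under 0.05 before adjustment and 0.383% of all genes called. With 1 library left out the value ranged from 1.22 to 2.56 at 6 h, where no omission gave a call, and from 2.99 to 4.70 at 12 h. Both 6 h extremes came from leaving out a 0 h library and both 12 h extremes from a 12 h library, and at 12 h ADAM19 passed without either 96 h library (limma adjusted p = 0.0132). With the replicate number as a block, since libraries of a number deviated together, ADAM19 passed at 12 h (limma adjusted p = 0.000492, 1.92% of genes called higher) and was at 0.0527 at 6 h. With the block and TMM scaling (trimmed mean of M values) together, the 6 h value was 2.41 (limma adjusted p = 0.000755, 2.15% of genes called higher).

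The direction of the ADAM19 change was the same in every setting tried, from 6 h to 96 h. Its calls in the fit without the replicate block leaned on single libraries. At 24 h the value ranged from 3.44 to 4.77 and the call was lost without either 0 h library or either 24 h library, with limma adjusted p up to 0.404. It was lost at 36 h without the second 0 h library or either 36 h library, at 48 h without either 0 h or either 48 h library, and at 72 h without the second 0 h or the first 72 h library. At 96 h it was lost in 9 of 16 cases, those of both libraries of 0, 6, 24 and 48 h and the first of 96 h, and the value ranged from 2.41 to 4.71. With no filter on low values the same fold changes passed at none of the 7 times, with limma adjusted p of 0.051 at 36 h as the lowest. None of these fits had the replicate block. With the block and all 16 libraries, ADAM19 passed at each time from 24 h to 96 h. Its limma adjusted p was 8.92e-05 at 24 h and 7.29e-05 at 96 h, where 1.87% and 1.5% of all genes were called higher. No library was left out of the blocked fit, so its calls were not tried in this way. Between the pair of times 72 and 96 h and the pair 24 and 36 h, ADAM19 differed by -0.37 (SE 0.55, limma adjusted p = 1), so a late decline or a late gain was not shown.

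**Figure D2:**
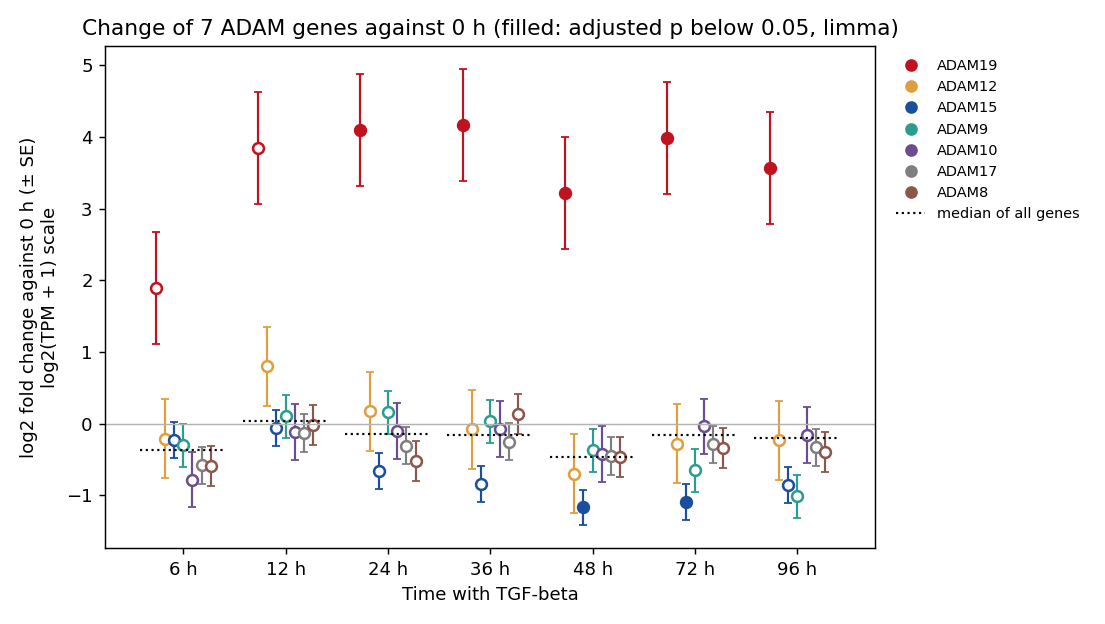
Log2 fold change against 0 h (vertical axis, log2(TPM + 1) scale, with SE bars) of the 7 ADAM genes at 7 times, filled where the limma adjusted p was below 0.05, with the median of all genes as a dotted line. ADAM19 stood between 1.89 and 4.17, while the other members lay between -1.17 and 0.80.

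ADAM15 (chromosome 1, 155050566 to 155062775, plus strand) fell at 48 h and 72 h in the TPM as deposited. Its TPM in the first and second library were 17.3 and 24.3 at 6 h, 23.4 and 22.8 at 12 h, 13.4 and 16.7 at 24 h, and 13.4 and 12.8 at 36 h. They were 8.96 and 11.6 at 48 h, 10 and 11.8 at 72 h, and 11.8 and 14.0 at 96 h. Every library from 24 h on lay below both 0 h libraries, as did 37.1% of all genes at 24 h and 31% at 96 h. Neither series was the higher at all times. The log2 fold change was -1.17 (SE 0.25, limma adjusted p = 0.0193) at 48 h, where 6.8% of all genes were called lower, and -1.09 (SE 0.25, limma adjusted p = 0.036) at 72 h, where 1.74% were. By size of fall it ranked 1401 and 812 of 16967 at those times. At 24 h, 36 h and 96 h the values were -0.66, -0.84 and -0.86 (limma adjusted p = 0.296, 0.109 and 0.112), and with the replicate block ADAM15 passed at 36 h and 96 h (limma adjusted p = 0.0343 and 0.0341), where 3.15% and 3.31% of all genes were called lower in that fit.

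The size of the ADAM15 change depended on the scaling between libraries. The median of all genes was -0.46 at 48 h and -0.16 at 72 h. After TMM scaling ADAM15 was at -0.59 (limma adjusted p = 0.324) at 48 h and -0.88 (limma adjusted p = 0.163) at 72 h, and with the small RNAs left out of the total at -0.87 and -0.95 (limma adjusted p = 0.0741 and 0.0714). With block and TMM scaling together the 48 h value did not pass (limma adjusted p = 0.115) and the 72 h value did (limma adjusted p = 0.0276, 4.44% of genes called lower). The 48 h call was also lost without either 0 h library or the first 48 h library, and the 72 h call without either library of 0, 24, 36 or 72 h, over ranges of -1.34 to -1 and -1.26 to -0.92.

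ADAM9 was the most abundant member in 16 of 16 libraries, and its lowest values came late. It was at 117 and 127 TPM at 6 h, 182 and 143 at 12 h, 175 and 161 at 24 h, 155 and 152 at 36 h, and 104 and 131 at 48 h, in the first and second library. At 72 h it was at 108 and 84.2, and at 96 h at 108 and 50.8. Both libraries of 72 h and of 96 h lay below all 4 libraries of 24 h and 36 h, as was the case for 4.01% of all genes, and the second was the lower at these late times. Against 0 h the log2 fold change was 0.16 at 24 h and -1.01 (SE 0.30, limma adjusted p = 0.125) at 96 h, which passed with the block (limma adjusted p = 0.0492) but not with block and TMM scaling together (-0.72, limma adjusted p = 0.0743).

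In the late contrast, 72 and 96 h against 24 and 36 h, ADAM9 differed by -0.92 (SE 0.21, limma adjusted p = 0.176), and 0 of 7 members were called where 0.1% of all genes were. Before adjustment 1 of the 7 was under 0.05. The ADAM9 value passed after TMM scaling (-0.85, limma adjusted p = 0.0495), with the small RNAs left out (-0.86, limma adjusted p = 0.0436) and with block and TMM scaling together (limma adjusted p = 0.0197). Of all genes, 0.242%, 0.177% and 0.843% were called lower in these fits. With the block alone its limma adjusted p was 0.0544. Without the first 96 h library it was -1.19 (limma adjusted p = 0.00728), and over all 16 omissions it ranged from -1.19 to -0.65.

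ADAM10 and ADAM17, the 2 members that cut the widest known range of substrates, passed in no comparison. ADAM10 was at 39.1 and 49.4 TPM at 6 h, 91.2 and 53.8 at 12 h, 82.9 and 60.4 at 24 h and 103 and 44.6 at 96 h, so that its libraries at 96 h enclosed those of 0 h. Its log2 fold change was -0.10 (SE 0.39, limma adjusted p = 0.977) at 24 h and -0.16 (limma adjusted p = 0.912) at 96 h, and both values were above 0 after TMM scaling. ADAM17 was at 14.6 and 18.7 at 6 h, 20.8 and 19.5 at 24 h and 24.5 and 16.1 at 96 h, with -0.31 (SE 0.26, limma adjusted p = 0.799) at 24 h and -0.33 (limma adjusted p = 0.681) at 96 h. Its highest library was 1.82 times its lowest, the smallest span of the 7. At 6 h both genes lay below both 0 h libraries, as did 61.8% of all genes, with ADAM10 at -0.78 and ADAM17 at -0.58 (limma adjusted p = 0.378 and 0.364) where the median of all genes was at -0.37. After TMM scaling ADAM10 was at -0.17 and ADAM17 at 0.01 at 6 h.

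ADAM12 passed in no comparison. It was at 1.74 and 2.01 TPM at 6 h, 8.54 and 2.49 at 12 h, 4.51 and 1.52 at 24 h, 3.08 and 1.43 at 36 h, 1.32 and 0.80 at 48 h, 2.27 and 1.29 at 72 h and 3.58 and 0.76 at 96 h. Its highest value was that of the first library at 12 h, and its libraries overlapped those of 0 h at every time but 48 h, when both lay below, as they did for 62.3% of all genes. The log2 fold change was 0.80 (SE 0.55, limma adjusted p = 0.92) at 12 h, 0.17 at 24 h and -0.23 at 96 h. ADAM8 ran from 0.66 to 2.28 TPM over the 16 libraries, with -0.52 (SE 0.28, limma adjusted p = 0.573) at 24 h and -0.40 (limma adjusted p = 0.612) at 96 h. At such levels small shifts are not resolved.

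Over the whole course, the F test of the 7 differences from 0 h called 0 of 7 members, against 1.72% of all genes. ADAM19 (limma adjusted p = 0.068) and ADAM15 (limma adjusted p = 0.0688) came nearest, and 3 of 7 were under 0.05 before adjustment. With the replicate block both passed (limma adjusted p = 0.000107 and 0.0123), against 6.13% of all genes. The median of the members' log2 fold changes was -0.10 at 24 h, -0.45 at 48 h and -0.33 at 96 h, beside -0.15, -0.46 and -0.20 over all genes tested.

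The mixture of ADAM transcripts shifted towards ADAM19. At 0 h ADAM19 made up 1.93% and 0.56% of the summed TPM of the 7 genes in the first and second library, and ADAM9 made up 54.3% and 51.9%. ADAM19 reached 24.0% and 11.5% at 12 h, 26.6% and 17.2% at 36 h and 29.6% and 14.1% at 96 h, when ADAM9 stood at 30.2% and 34.4%. The sum itself was 286 and 282 TPM at 0 h and 359 and 148 at 96 h, so the 2 late libraries went to opposite sides of the start. The ratio of ADAM19 to ADAM10 in the same library went from 0.0745 and 0.0203 at 0 h to 1.03 and 0.468 at 96 h, and the ratio of ADAM19 to ADAM12 from 1.78 and 0.935 to 29.7 and 27.4. A ratio within a library does not depend on its scaling.

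**Figure D3:**
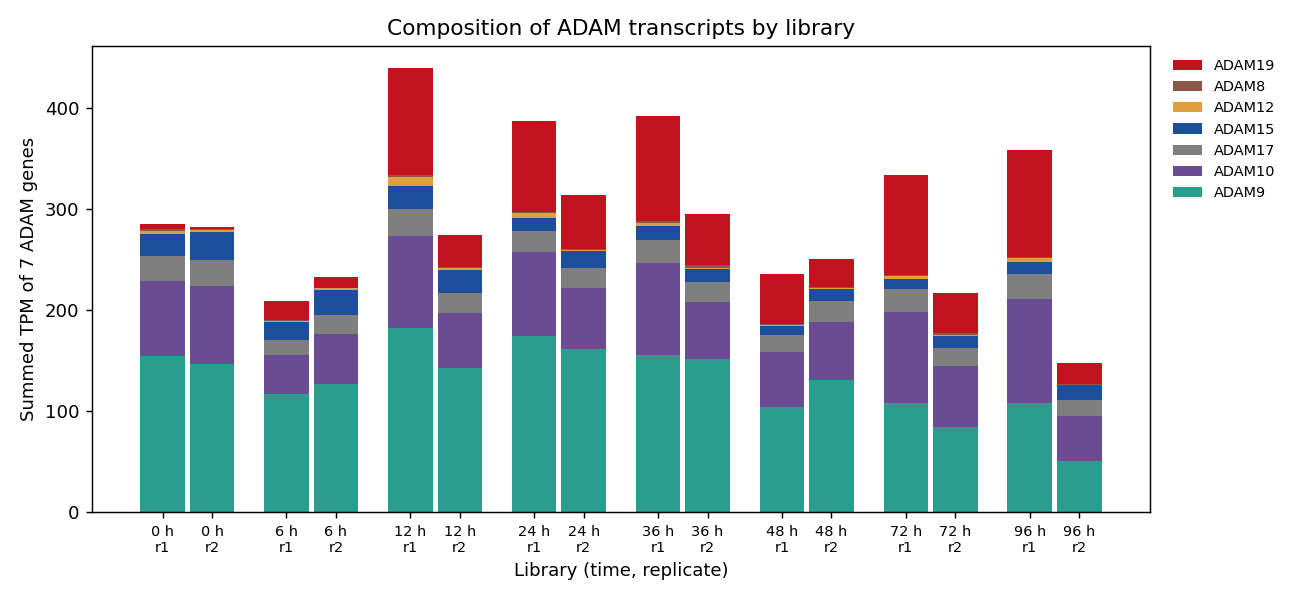
Summed TPM of the 7 ADAM genes in each of the 16 libraries (bars from 0, stacked by gene, labelled by time and replicate). The ADAM19 share went from 1.93% and 0.56% at 0 h to 29.6% and 14.1% at 96 h, and ADAM9 was the thickest layer at 0 h with 54.3% and 51.9%.

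The order of the members changed in the middle ranks. ADAM19 had rank 5 and 6 in the 0 h libraries, and over the course it had rank 2 in 5 libraries and rank 3 in 8. ADAM10 had rank 2 in 11 libraries and rank 3 in 5. ADAM19 and ADAM10 overlapped at 12, 24, 36, 72 and 96 h and did not at 48 h, where ADAM10 was higher. At 96 h the library ranges of ADAM9 and ADAM10, ADAM10 and ADAM19, and ADAM19 and ADAM17 overlapped, but in both libraries ADAM9 had rank 1 and ADAM17 rank 4. ADAM19 and ADAM10 changed places between the 2 libraries of 96 h. ADAM8 was last in 14 of 16 libraries.

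Across the 16 libraries, which share times and scaling, Pearson's r of log2(TPM + 1) was 0.87 between ADAM10 and ADAM17, -0.61 between ADAM15 and ADAM19, and 0.37 between ADAM12 and ADAM19. Where the search was held to genes averaging 5 TPM or more, the patterns nearest to ADAM19 over 16 libraries were those of NPTX1 (0.981), ABLIM3 (0.973) and FAM89B (0.973). The nearest to ADAM15 were TALDO1 (0.976), PROCR (0.968) and GSR (0.967), and to ADAM9 DDB2 (0.909), HDAC1 (0.88) and AC034220.3 (0.877). Those nearest to ADAM10 were ZRANB1 (0.988), TAF1 (0.979) and ELK4 (0.976), to ADAM17 PPP1R12B (0.961), PHKB (0.96) and XPC (0.959), to ADAM12 CORO1C (0.965), RASSF3 (0.963) and SAMD1 (0.959), and to ADAM8 AKAP8L (0.84), ZNF331 (0.839) and PLEKHM1P (0.827). These correlations describe the course and carry no test.

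The genes around the ADAM proteases were read from lists at 24 h and 96 h. Of all genes tested, 0.613% and 0.536% were called higher at these times and 0.595% and 1.26% lower by limma. With the replicate block the shares were 1.87% and 1.5% higher and 1.92% and 3.31% lower, and with block and TMM scaling together 4.67% and 3.97% higher and 2.1% and 3.16% lower. These are the shares to set beside the counts that follow.

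Of 14 other ADAM genes, 3 passed the filter on low values (ADAM22, ADAM23 and ADAM32), and 0 of the 3 were called at 24 h or 96 h by limma, by adjusted or unadjusted p. The secreted ADAMTS relatives, some of which cut matrix proteoglycans, had 8 of 19 genes past the filter and 0 called at 24 h or 96 h. Before adjustment 2 of the 8 were under 0.05 at each time by limma. With the replicate block 1 of the 8 passed at each of these times, ADAMTS15 at 24 h (1.5, limma adjusted p = 0.0319) and ADAMTS6 at 96 h (2.66, limma adjusted p = 0.00453), both named because they made up those counts. With block and TMM scaling together 2 and 4 of the 8 rose.

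The list of metalloprotease inhibitors held TIMP1 to TIMP4 and RECK, and their action on each of the 7 members was not measured. Of these 5 genes, 1 rose at 24 h and 0 passed at 96 h by limma. Before adjustment 3 and 2 of them were under 0.05. TIMP4 rose from 4.47 ± 0.148 TPM (SD, n = 2) at 0 h to 14.8 ± 3.42 (SD, n = 2) at 24 h, a log2 fold change of 1.51 (SE 0.24, limma adjusted p = 0.0117), and it was called from 12 h to 72 h. TIMP2 was at 35.2 and 23.1 TPM at 0 h, 232 and 142 at 24 h and 240 and 55.2 at 96 h, so that both later pairs lay above the start. It did not pass at 24 h (2.63, limma adjusted p = 0.101) or 96 h (1.98, limma adjusted p = 0.207) and did with the replicate block (limma adjusted p = 0.00092 and 0.00307). TIMP3, the inhibitor with the broadest action on ADAM proteases, was at 0.35 and 0.01 TPM at 0 h and 5.03 and 2.49 at 24 h (1.97, limma adjusted p = 0.242, with the block 0.00504). At 96 h TIMP3 was at 2.06 and 0.05 TPM and did not pass (0.62, limma adjusted p = 0.784, with the block 0.376). TIMP1 was at 57.5 ± 7.13 (SD, n = 2) at 0 h and 58.2 ± 3.59 (SD, n = 2) at 24 h. The median over the 5 genes was 1.51 at 24 h and 0.62 at 96 h, beside -0.15 and -0.20 over all genes.

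Of 7 genes for maturation and traffic, 1 rose at 24 h and 0 passed at 96 h, with 1 under 0.05 by limma before adjustment at each time. FURIN, which removes the prodomain of many ADAM proenzymes, was at 14.1 and 10.2 TPM at 0 h and 77.1 and 44.5 at 12 h. It was at 46.0 and 45.5 at 24 h and 40.0 and 14.6 at 96 h. It passed at 12 h (2.20, SE 0.40, limma adjusted p = 0.0431), 24 h (1.85, adjusted p = 0.0473) and 36 h (1.85, adjusted p = 0.0327) and not at 96 h (0.96, adjusted p = 0.311). With the block alone it did not pass at 96 h (limma adjusted p = 0.0818), and with block and TMM scaling together it did (1.23, limma adjusted p = 0.00844). The iRhoms RHBDF1 and RHBDF2, which carry ADAM17 to the cell surface, passed at neither time. RHBDF2 was at 13.1 ± 0.969 TPM (SD, n = 2) at 0 h, 15.6 ± 1.84 (SD, n = 2) at 24 h and 11.3 ± 8.45 (SD, n = 2) at 96 h.

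The TspanC8 tetraspanins bind ADAM10 and steer it to different substrates, and 0 of 6 passed at 24 h or 96 h, with 2 and 3 under 0.05 by limma before adjustment. TSPAN15, which directs ADAM10 to N-cadherin, was at 35.8 and 49.8 TPM at 0 h, 58.3 and 116 at 24 h and 20.3 and 14.4 at 96 h. In the late contrast of 72 and 96 h against 24 and 36 h it fell by 1.71 on the log2 scale (SE 0.28, limma adjusted p = 0.0457), while ADAM10 itself showed no such call. At 96 h against 0 h TSPAN15 was at -1.25 (limma adjusted p = 0.157, with the block 0.0296), and TSPAN5, the other member of the list called there with the block, at 1.31 (limma adjusted p = 0.0724, with the block 0.0171). TSPAN14 was at 0.41 and 0.49 at 24 h and 96 h and did not pass, except at 96 h with block and TMM scaling together (0.78, limma adjusted p = 0.0224). In that fit 2 of the 6 rose and 0 fell at each time. Of 7 SH3-domain adaptors that bind ADAM tails, 6 passed the filter and 0 were called at either time, with 1 and 0 under 0.05 before adjustment by limma. With the block 1 rose at 24 h, PACSIN3 (1.21, limma adjusted p = 0.0248), named because it made up that count, and with block and TMM scaling together 2 rose at each time.

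The substrates moved unevenly. Of 9 ligands of the epidermal growth factor (EGF) family, which ADAM17 and ADAM10 release, 7 passed the filter, 2 fell and 0 rose at both 24 h and 96 h. With the replicate block 3 fell and 0 rose at each time, the third being BTC (-1.02 and -0.86, limma adjusted p = 0.0253 and 0.05). With block and TMM scaling together 2 rose at each time, and 3 and 2 fell. AREG, a ligand shed by ADAM17, fell from 22.8 ± 0.735 TPM (SD, n = 2) at 0 h to 2.19 ± 0.297 (SD, n = 2) at 24 h and 2.51 ± 1.82 (SD, n = 2) at 96 h, with log2 fold changes of -2.90 (SE 0.49, limma adjusted p = 0.0151) and -2.86 (limma adjusted p = 0.0108). EREG, also shed by ADAM17, fell from 18.8 ± 4.07 (SD, n = 2) to 2.58 ± 1.34 (SD, n = 2) and 3.67 ± 1.34 (SD, n = 2), with -2.50 (SE 0.42, limma adjusted p = 0.0151) and -2.09 (limma adjusted p = 0.0236). NRG1, the neuregulin that ADAM19 is known to process, was at 107 and 58.0 TPM at 0 h, 233 and 140 at 24 h and 275 and 80.6 at 96 h. It did not pass (1.19 and 0.91, limma adjusted p = 0.472 and 0.542) and did with block and TMM scaling together (limma adjusted p = 0.00946 and 0.0211). HBEGF, another ligand of the family, was at 1.45 and 0.58 TPM at 0 h and 4.53 and 3.16 at 24 h. At 96 h its libraries were at 7.96 and 1.15, the second below the first 0 h library. Its log2 fold changes were 1.29 and 1.16 (limma adjusted p = 0.476 and 0.452). HBEGF did not pass with the block alone (limma adjusted p = 0.0734 and 0.0951). It did with block and TMM scaling together (1.34 and 1.24, limma adjusted p = 0.0107 and 0.0176). The median of the 7 was -0.39 at 24 h and 0.01 at 96 h.

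Of 13 adhesion molecules known as ADAM substrates, 10 passed the filter, and 1 rose and 1 fell at 24 h, while 0 rose and 1 fell at 96 h. CDH1, cut by ADAM10 and ADAM15, was at 14.5 and 27.6 TPM at 0 h, 1.08 and 2.72 at 24 h and 0.44 and 3.24 at 96 h. It fell, with log2 fold changes of -2.92 (SE 0.62, limma adjusted p = 0.0427) and -3.09 (limma adjusted p = 0.024). CDH2 (N-cadherin), cut by ADAM10, was at 36.8 and 16.5 at 0 h, 89.5 and 52.3 at 24 h and 142 and 51.6 at 96 h. It did not pass at 24 h (1.43, limma adjusted p = 0.381) or 96 h (1.75, limma adjusted p = 0.192) and did with the block (limma adjusted p = 0.00585 and 0.00119). SDC4, a heparan sulfate proteoglycan shed from the surface, rose from 10.8 ± 1.15 TPM (SD, n = 2) to 44.5 ± 7.93 (SD, n = 2) at 24 h, by 1.94 (SE 0.34, limma adjusted p = 0.0177). At 96 h it was at 24.9 ± 13.8 TPM (SD, n = 2) and did not pass (1.03, limma adjusted p = 0.176), with the block at 0.0651, and it did with block and TMM scaling together (1.29, limma adjusted p = 0.0164). Over the list, the block gave 2 higher and 2 lower at 24 h and 1 higher and 1 lower at 96 h.

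Of 15 receptors and other proteins cut by ADAM proteases, 11 passed the filter and 0 were called at 24 h or 96 h, with 1 and 3 under 0.05 before adjustment by limma. The 8 secretase genes, whose products cut the stubs that shedding leaves, all passed the filter and 0 were called at either time, with 1 and 0 under 0.05 before adjustment. Of the rows for 8 integrin genes, partners of ADAM disintegrin domains, 6 passed the filter and 0 were called, with 3 and 1 under 0.05 before adjustment by limma. With the replicate block 2 rose at 24 h, and 1 rose and 1 fell at 96 h, and with block and TMM scaling together 3 rose at each time. In bulk RNA a lower level can mean fewer cells with the transcript or less of it in each cell, and the 2 cannot be told apart here.

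**Figure D4:**
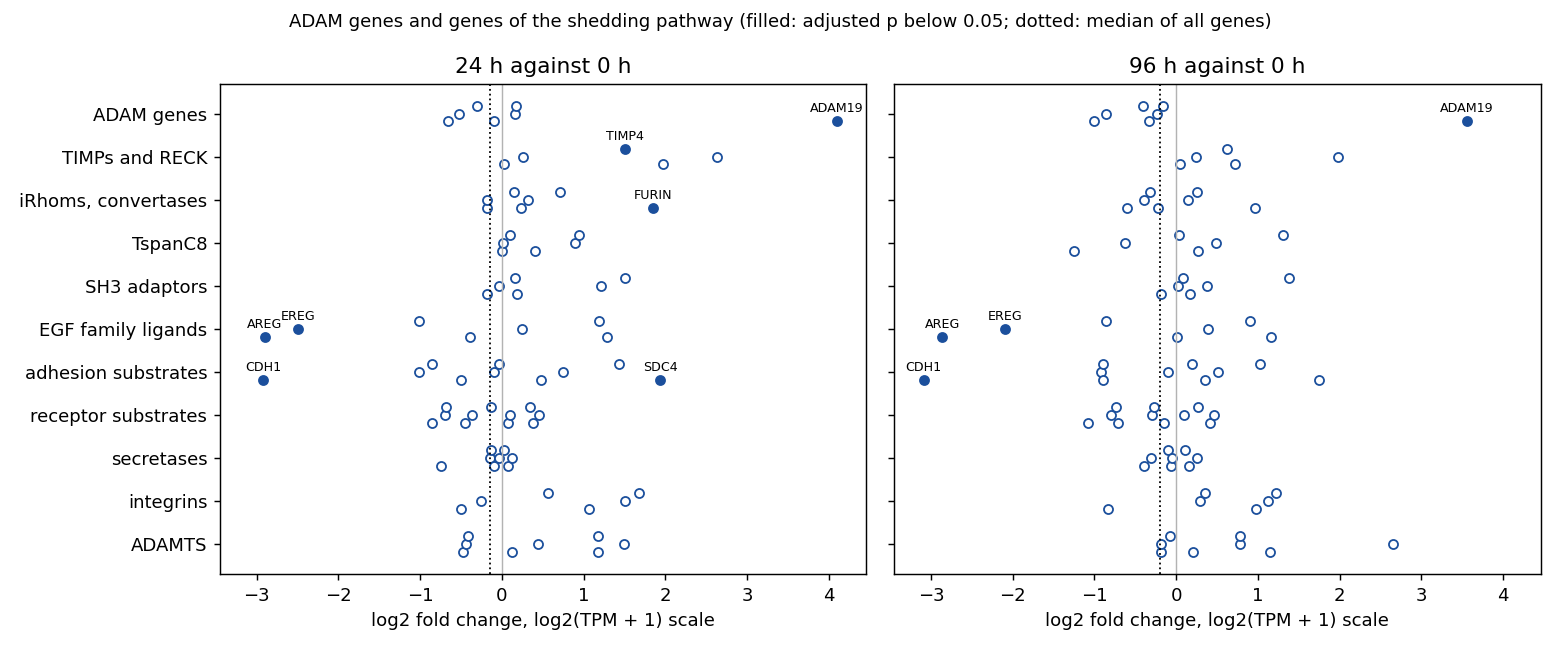
Log2 fold change at 24 h and at 96 h against 0 h (horizontal axes, log2(TPM + 1) scale), with 1 point for each gene past the filter in each list, filled and named where the limma adjusted p was below 0.05, and the median of all genes dotted. ADAM19 stood farthest right at both times, at 4.10 and 3.56, while CDH1 stood farthest left, at -2.92 and -3.09.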

How the data were processed

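Trizol RNA and a TruSeq RNA kit were used, per the labels' protocols. Bowtie and RSEM are named in the submitters' processing notes, with no versions, and the genome build is not given in the sources used here. The authors deposited 2 tables of TPM, 1 for each replicate number, with 57773 genes and 8 times. TPM are relative to the library, so a change in abundant RNAs moves all other values.

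The 16967 genes that reached 1 TPM in 2 libraries or more were fitted with limma 3.58.1 in R 4.3.3 on log2(TPM + 1), with 1 mean per time over 16 libraries and a mean trend in the prior variance. Tests were two-sided, adjusted by Benjamini-Hochberg within a comparison, and called below 0.05. The script was tested on simulated data. Alternatives were TMM scaling, TPM without 6 small RNAs, the replicate block, block and TMM scaling together, a pseudocount of 0.1 TPM, no filter, no variance trend, and leaving out each library.

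Libraries of the same replicate number deviated together from their time means in 28 of 28 pairs of times (lowest correlation 0.128, median 0.438). After TMM scaling the lowest correlation was 0.0721 and the median 0.43. The pairing comes from the numbers in the labels and this check, since the labels name no shared batch. 

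All 7 ADAM genes are reported, with fixed partners, up to 2 called genes with the largest rise and up to 2 with the largest fall per list at 24 h and 96 h with a mean of at least 5 TPM, and the 3 nearest patterns of each member. Members and lists were chosen with earlier results of these data known. Promoter sequences are from RefSeq (GRCh38.p14) and gene positions from GENCODE 29 by Ensembl ID.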

Additional observations from a re-analysis of the deposited data

How the results depend on the processing

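Counts of called members moved as follows. With TMM scaling, and equally with the small RNAs left out, 1 of 7 was called at 12 h, 1 at 48 h, 1 at 72 h, 1 in the late contrast and 1 by the F test, against 0, 2, 2, 0 and 0. With the replicate block 1 was called at 12 h, 2 at 36 h, 3 at 96 h and 2 by F, against 0, 1, 1 and 0, and the block changed no other call of a member in the comparisons reported. With the block and TMM scaling together 1 was called at 6 h, 1 at 12 h, 1 at 48 h, 1 late and 3 by F. With no filter, where more genes are tested, 0 were called at 24, 36 and 96 h, and 1 at 48 h and at 72 h. There ADAM19 had limma adjusted p of 0.0788, 0.051, 0.0782, 0.0617 and 0.107 from 24 h to 96 h. The pseudocount of 0.1 and the fit with no trend moved no count.

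Leaving out 1 library gave 0 to 0 called members at 6 h, 0 to 1 at 12, 24, 36 and 96 h and in the late contrast, and 0 to 2 at 48 h, at 72 h and by F. Sign changes met values that were not called. With TMM scaling, with or without the block, ADAM10 was at 0.09 at 24 h and 0.13 at 96 h, ADAM15 at 0.36 and ADAM17 at 0.01 at 6 h, and ADAM9 at 0.31 at 6 h and 0.24 at 48 h. With 1 library left out, ADAM10 ran from -0.33 to 0.12 at 24 h and -0.76 to 0.43 at 96 h, ADAM12 from -0.4 to 0.73 at 24 h and -0.92 to 0.46 at 96 h, ADAM15 from -0.46 to 0.01 at 6 h and -0.23 to 0.1 at 12 h, ADAM9 from -0.07 to 0.27 at 12 h and -0.01 to 0.07 at 36 h, and ADAM19 from -0.94 to 0.2 in the late contrast. ADAM9 at 96 h passed without the first 96 h library (-1.55, limma adjusted p = 0.0305). Where the lone remaining library of a time was tested, it was assumed to vary like those of the other times. The causes were not tested. Depth is unknown from TPM, which limits ADAM8 and ADAM12 most.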

Other observations

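ESAM, an adhesion molecule of endothelial tight junctions that was carried as an endothelial marker, was at 0.55 and 0.37 TPM at 0 h, 4.52 and 6.30 at 24 h, and 1.82 and 0.22 at 96 h. It rose at 24 h by a log2 fold change of 2.12 (SE 0.37, limma adjusted p = 0.018) and in the contrast of 72 and 96 h against 24 and 36 h it fell by 1.63 (SE 0.26, limma adjusted p = 0.0443). The other endothelial markers with values, CDH5, KDR, TEK and VWF, did not exceed 0.18 TPM in any library. PECAM1, also on that list, was not matched by its symbol and was not assessed. KRT19, a keratin of simple epithelia, was at 50.4 and 49.9 TPM at 0 h and 2.86 and 18.7 at 96 h, where its log2 fold change was -2.55 (SE 0.53, limma adjusted p = 0.0294).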
